A study of Mus musculus with 8 samples.

Results

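The tetraspanin family was examined in 3 sorted populations of the mouse bone marrow stem cell compartment. The members were 31 listed tetraspanin genes, each represented by the probe set annotated with that gene symbol alone and, where several existed, by the brightest of them on average across the 8 arrays. Of the 31 genes, 30 were measured, among 22180 genes on the array, and 28 reached the signal filter and entered the tests, among 17576 genes tested. Tspan7 was not matched to a probe set by this rule. Tspan9 (3.48 to 3.89) and Tspan1 (2.83 to 3.15) stayed below the filter of a mean log2 signal of 3.88 and are given by these ranges only.

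Tetraspanins are small proteins that cross the membrane several times and bind integrins, immunoglobulin-type proteins and each other, which gathers these partners into membrane domains. They also guide partner proteins through the cell, as the TspanC8 members do for the protease Adam10, and Cd63 and Cd9 are common markers of exosomes. In blood-forming cells Cd37 and Cd53 mark leukocytes, Cd9 and Cd81 have been used to mark or study stem cells, and Cd82 is known for a part in stem cell quiescence.

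The series holds single-colour expression arrays of total RNA from C57/Bl6 mouse bone marrow, with an age of 8 weeks in the labels. Long-term hematopoietic stem cells (LT-HSC) were sorted as CD34-, CD150+ and CD48- cells and have 2 arrays, replicates 1 and 3. Hematopoietic stem cells of the short-term class (ST-HSC, with 3 arrays) shared the CD150+ and CD48- gate but were CD34+, whereas multipotent progenitors (MPP, 3 arrays) were CD34+, CD150- and CD48+. Cells of all 3 populations were also Kit+, Sca1+ and negative for lineage markers. No genotype beyond the strain is given. The labels conflict on treatment, since each description states none while a protocol shared by all arrays describes DMSO for 2 hours, primary recipients for 1 year and secondary recipients for 3 months. Whether each array stands for its own animal is not said in the labels, so the p-values weigh differences against the spread of these samples alone, and that spread may be technical.

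Values are log2 RMA signals of 1 probe set per gene, and a difference is a difference of log2 means. Since probe sets respond differently, levels are compared between arrays and never between genes. Array medians lay between 4.95 and 5.22 and the correlations of array pairs between 0.948 and 0.989. The interquartile range of the signals was 2.49 in LT-HSC replicate 1, 2.73 in ST-HSC replicate 1 and 2.82 to 3.06 in the other arrays. LT-HSC replicate 1 had a median correlation with the rest of 0.956 and ST-HSC replicate 1 of 0.968, both lower than the 0.976 to 0.985 of the remaining 6. The gate gene Slamf1, which encodes CD150, was at 7.77 and 7.78 in LT-HSC, 7.25 to 7.46 in ST-HSC and 4.77 to 5.46 in MPP. Cd34 was at 8.50 in LT-HSC replicate 1 but at 10.20 in LT-HSC replicate 3, beside 9.55 to 10.15 in ST-HSC and 10.85 to 11.00 in MPP, so this gate gene did not set LT-HSC replicate 3 apart from ST-HSC. Cd48 was at 5.92 and 6.63 in LT-HSC, 6.51 to 7.49 in ST-HSC and 6.65 to 7.84 in MPP. Signals of the granulocyte gene S100a8 ranged from 6.61 in LT-HSC replicate 3 to 11.09 in LT-HSC replicate 1 and 11.29 in ST-HSC replicate 1. Markers of B cells averaged 4.64 to 5.08 per array and those of T and NK cells 4.66 to 4.86. In such sorted bulk samples, fewer cells of a type and less RNA per cell cannot be told apart.

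Every MPP array lay above every array of both stem cell populations for 5 of the 28 tested members. Of these, 3 (Cd37, Cd53 and Cd82) are in the list of leukocyte tetraspanins, which was written with earlier results of these data known. The other 2 were Tspan2 and Tspan5, and Tspan12 was the 1 member for which every MPP array lay below. Over all genes tested, 3.7% lay above in this way and 1.67% below. LT-HSC was above both other populations in this way for 0 members (4.73% of all genes) and below them for Tspan5 (5.62%). ST-HSC was above both others for 0 members (3.56%) and below them for Cd82 (1.6%). Some of these gaps were narrow. The lowest MPP array was at 6.41 and the highest ST-HSC array at 6.40 for Tspan5. For Cd82 the highest ST-HSC array was at 6.68 and the lower LT-HSC array at 6.70.

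**Figure D1:**
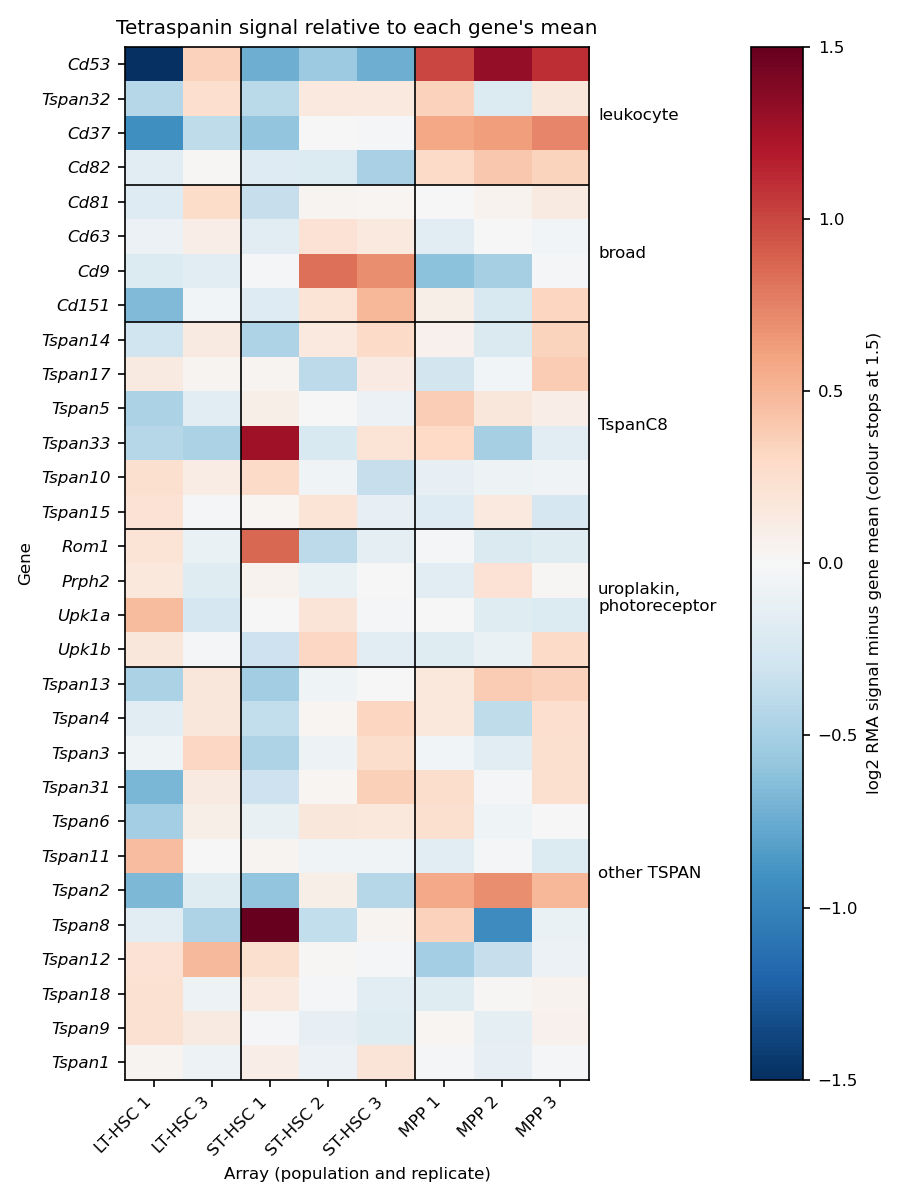
Log2 RMA signal of each measured tetraspanin in each of the 8 arrays, as the difference from that gene's mean over all arrays (colour, ending at 1.5 in either direction). Rows are genes in family groups and columns are arrays by population and replicate; the MPP columns are high for Cd37, Cd53, Cd82 and Tspan2, and ST-HSC replicate 1 is high for Tspan8, Tspan33 and Rom1.

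Counts of members that passed the tests were small. Using limma with Benjamini-Hochberg adjustment over all genes, 0 of the 28 members passed an adjusted p of 0.05 in MPP minus LT-HSC, ST-HSC minus LT-HSC or MPP minus ST-HSC, and 1, Cd37, passed the F test over the 3 populations. The same rule called 0.125%, 0.933%, 0.193% and 0.905% of all genes in these 4 tests. At an unadjusted p under 0.05 the members numbered 6, 2, 7 and 7, where the shares over all genes were 10.6%, 11.1%, 6.89% and 10.5%. In MPP minus LT-HSC the groups did not overlap for 5 members that were higher and 3 that were lower, against 14.1% and 10.5% of all genes. The same counts were 3 and 1 in ST-HSC minus LT-HSC, against 13.8% and 9.5%, and 6 and 1 in MPP minus ST-HSC, against 7.75% and 6.43%. The median log2 difference over the 28 members was 0.02, 0.01 and 0.03 in these 3 comparisons, beside 0.06, 0.02 and 0.01 over all genes. The median of the family was thus close to that of all genes, and the wide differences were those of a few members. Each pair of these comparisons shares a population, so they are not separate evidence.

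The leukocyte tetraspanins Cd37, Cd53, Cd82 and Tspan32 had their highest population mean in MPP in all 4 cases, with median log2 differences of 0.86 to LT-HSC and 0.75 to ST-HSC. Tspan32 in MPP turned below LT-HSC under 4 of 19 alternatives (down to -0.22) and below ST-HSC under 2 of 20 (down to -0.04). Over all genes tested, 3.7% had every MPP array above every array of both other populations. Of the 4 leukocyte tetraspanins, whose list was written with earlier results of these data known, 3 did. Relative to each gene's mean over all arrays, the group averaged 0.54 to 0.58 in the MPP arrays, -0.48 to -0.15 in ST-HSC, and -0.82 and 0.06 in LT-HSC replicates 1 and 3. On the same scale the 18 granulocyte and monocyte markers averaged 0.65 and -0.75 in LT-HSC replicates 1 and 3, 0.98, -0.36 and -0.59 in ST-HSC replicates 1 to 3, and 0.57, -0.30 and -0.19 in MPP. These markers were highest in LT-HSC replicate 1 and ST-HSC replicate 1, where the leukocyte tetraspanins were lowest, but in the other 3 stem cell arrays they lay below every MPP array, as the leukocyte tetraspanins did. By limma 0 of the 18 passed in MPP minus LT-HSC or MPP minus ST-HSC, beside 0.125% and 0.193% of all genes. At an unadjusted limma p under 0.05 there were 2 and 2, each 11.1% of the list, beside 10.6% and 6.89% of all genes. By mean, 11 of the 18 were lower in MPP than in LT-HSC (median log2 difference -0.08). In MPP minus ST-HSC, 10 of the 18 were lower (median -0.1). One of those that went the other way was Csf3r, the granulocyte colony-stimulating factor receptor, named here after its values were seen. It was at 8.18 to 8.51 in MPP and 6.81 to 7.89 in the stem cell arrays. For all 10 tested ubiquitous control genes the MPP mean likewise exceeded the LT-HSC mean, with a median log2 difference of 0.37 (0.05 for MPP minus ST-HSC), and averaged -0.35 in LT-HSC replicate 1. What part granulocytic cells or the state of LT-HSC replicate 1 had in the leukocyte group was not tested.

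Promoter sequence is shown for Cd37 and Cd53, the 2 leukocyte members with the widest difference between MPP and LT-HSC, and for Cd9, which went the other way between ST-HSC and MPP. Each line gives the 250 bases before the RefSeq start on the gene's strand, from GRCm38.p6: Cd37 at chr7:45238840-45239089, Cd53 at chr3:106790150-106790399 and Cd9 at chr6:125494761-125495010, all on the minus strand. Capitals mark matches to any of 5 motifs searched on both strands, the PU-box GAGGAA bound by ETS factors such as PU.1, the RUNX motif TGTGGT, the GC box GGGCGG, the GATA motif AGATAA and the E-box CACGTG.
Cd37: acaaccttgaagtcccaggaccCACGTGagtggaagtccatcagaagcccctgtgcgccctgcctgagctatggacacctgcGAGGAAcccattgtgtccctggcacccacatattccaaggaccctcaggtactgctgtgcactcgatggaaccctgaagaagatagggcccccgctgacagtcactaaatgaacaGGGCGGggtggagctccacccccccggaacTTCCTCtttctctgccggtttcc
Cd53: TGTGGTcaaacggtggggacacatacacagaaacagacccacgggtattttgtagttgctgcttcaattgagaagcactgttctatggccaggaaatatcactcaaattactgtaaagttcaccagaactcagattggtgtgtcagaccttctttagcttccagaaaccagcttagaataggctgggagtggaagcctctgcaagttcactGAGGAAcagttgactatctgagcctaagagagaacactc
Cd9: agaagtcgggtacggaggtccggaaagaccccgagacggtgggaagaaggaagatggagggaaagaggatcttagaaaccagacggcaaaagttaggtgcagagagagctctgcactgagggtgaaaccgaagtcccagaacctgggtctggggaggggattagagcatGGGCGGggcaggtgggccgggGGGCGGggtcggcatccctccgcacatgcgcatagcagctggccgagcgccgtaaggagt
The Cd37 window held GAGGAA beginning 168 bases before the start, its reverse complement TTCCTC at 23, a GC box at 53 and an E-box at 228, with no overlap among them. Cd53 had GAGGAA at 39 and TGTGGT at 250 and no GC box, while Cd9 had 2 GC boxes, at 81 and 60, and neither GAGGAA nor TGTGGT. Among all 32851 RefSeq windows of this length, GAGGAA occurred in 23.3%, TGTGGT in 14%, GGGCGG in 32.7%, AGATAA in 9.99% and CACGTG in 6.02%. The 29 listed members with an entry had 39 windows, up to 4 per gene. Of these 39 windows, 10 held GAGGAA, 6 held TGTGGT, 17 held GGGCGG, 2 held AGATAA and 2 held CACGTG. The 9 genes with GAGGAA in any window were Cd63, Tspan14, Tspan31, Tspan6, Tspan9 and all 4 leukocyte members, Cd37, Cd53, Cd82 and Tspan32. That count is per gene, and Cd82 had 4 windows, so the count cannot be set beside the percentages above, which are per window. Whether GAGGAA was more frequent in the leukocyte group than in other genes was not tested. The motif matches describe the letters in a window and are not binding data.

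Cd37, a tetraspanin of lymphoid and myeloid cells known for its part in B cell responses, was the member called by the F test. Its signal was 6.67 and 7.21 in LT-HSC replicates 1 and 3, 7.00, 7.59 and 7.56 in ST-HSC replicates 1 to 3, and 8.17, 8.22 and 8.32 in MPP. The MPP arrays were the highest and lay close together, whereas LT-HSC and ST-HSC overlapped. The LT-HSC mean was 6.94 ± 0.38 (SD, n = 2), the ST-HSC mean 7.38 ± 0.33 (SD, n = 3) and the MPP mean 8.24 ± 0.08 (SD, n = 3). MPP exceeded LT-HSC by 1.30 (SE 0.23, 95% interval 0.80 to 1.80, limma adjusted p = 0.0776), a 2.46-fold difference on the linear scale, and ST-HSC by 0.86 (SE 0.20, interval 0.40 to 1.31, adjusted p = 0.156). ST-HSC minus LT-HSC was 0.44 (interval -0.06 to 0.95, adjusted p = 0.508). The F test gave an adjusted p of 0.044. Leaving out an LT-HSC array leaves 1, which the fit assumes to vary like the other populations. When arrays were left out in turn, that call was lost for 6 of the 8: LT-HSC replicate 1 (adjusted p = 0.114), replicates 2 (0.0802) and 3 (0.106) of ST-HSC, and all MPP replicates (0.124, 0.124 and 0.213). It passed with LT-HSC replicate 3 removed (0.0242) and with ST-HSC replicate 1 removed (0.034). With the replicate number as a block in a fit of ST-HSC and MPP alone, MPP minus ST-HSC had a limma adjusted p of 0.0308. That block, here and for the genes below, was chosen after seeing the data and assumes a pairing that the labels do not state.

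Cd53, a pan-leukocyte tetraspanin, had the widest range over the arrays of all 30 measured members, 3.08 log2 units. Its signal was 7.25 and 9.37 in the LT-HSC replicates, 8.29, 8.47 and 8.29 in ST-HSC, and 10.02, 10.34 and 10.13 in MPP. Every MPP array was above all others, and the ST-HSC values fell between those of the 2 LT-HSC arrays. MPP exceeded ST-HSC by 1.81 (SE 0.40, interval 0.93 to 2.69, limma adjusted p = 0.124), a 3.51-fold difference, and this passed with the replicate block on ST-HSC and MPP (adjusted p = 0.000549). Its adjusted p was also 0.00171 in a fit of these 2 populations without a block and 0.00171 with either LT-HSC array left out, and in those fits LT-HSC adds nothing to the spread that the populations share. MPP minus LT-HSC was 1.85 (SE 0.45, adjusted p = 0.188) with both LT-HSC arrays, 0.79 (adjusted p = 0.394) without replicate 1 and 2.91 (adjusted p = 0.00113) without replicate 3. ST-HSC minus LT-HSC was 0.04 (adjusted p = 0.984), and turned from -1.02 without LT-HSC replicate 1 to 1.10 (adjusted p = 0.0253) without replicate 3. The LT-HSC array with the higher Cd53 signal was also the one with the higher Cd34 signal, and what part the sort had in this was not tested.

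**Figure D2:**
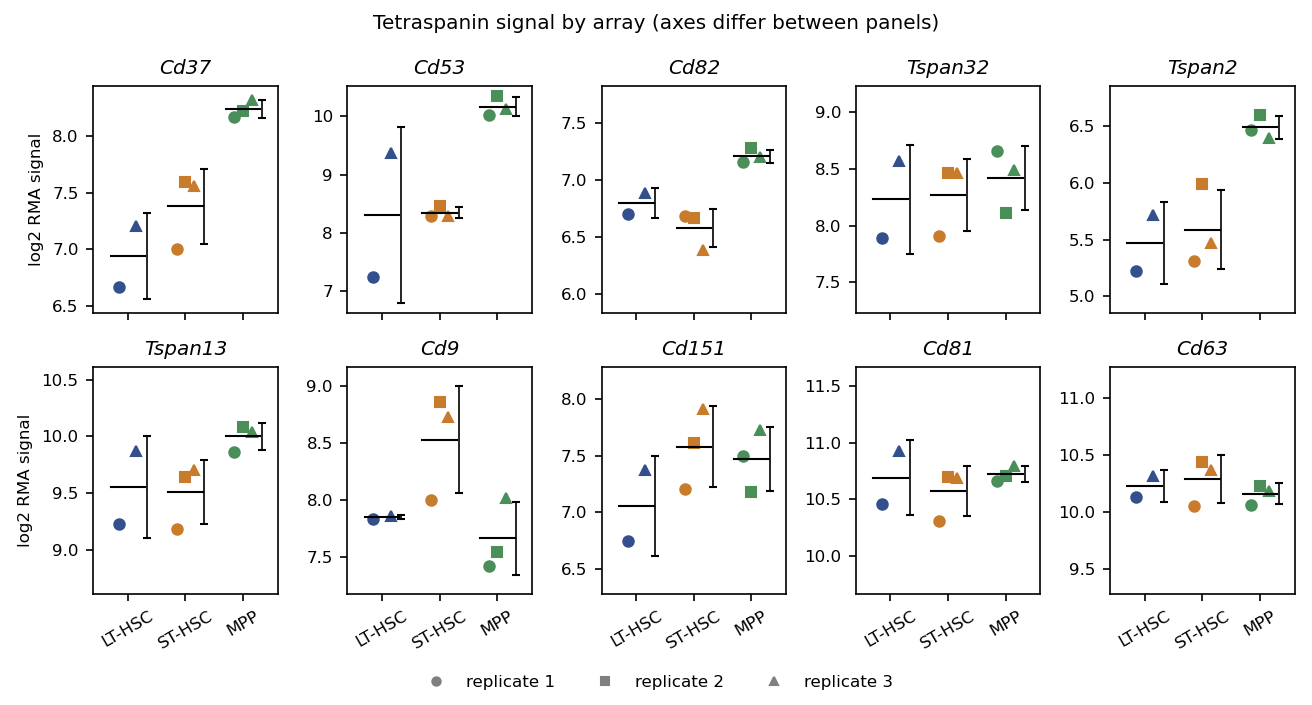
Log2 RMA signal of Cd37, Cd53, Cd82, Tspan32, Tspan2, Tspan13, Cd9, Cd151, Cd81 and Cd63 in every array, 1 point per array with its shape giving the replicate number. Horizontal lines are population means and the bars beside them 1 SD either way (n = 2 for LT-HSC, 3 for ST-HSC and MPP). Cd37, Cd53, Cd82 and Tspan2 have 3 MPP points above all others, and Cd53 shows LT-HSC replicates 1 and 3 apart at 7.25 and 9.37.

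Cd82, an inhibitor of cell migration that associates with integrins, was at 6.70 and 6.89 in LT-HSC, 6.68, 6.67 and 6.38 in ST-HSC, and 7.16, 7.28 and 7.20 in MPP. Its MPP arrays were again the highest, and its ST-HSC arrays were below both LT-HSC arrays, the only tested member with that order. MPP exceeded ST-HSC by 0.64 (SE 0.15, interval 0.29 to 0.98, limma adjusted p = 0.167, and 0.0784 with the replicate block on both populations) and LT-HSC by 0.42 (SE 0.17, adjusted p = 0.443). Tspan32, a regulator of T cell and platelet responses found in blood cells, was at 7.89 and 8.57 in LT-HSC, 7.91, 8.46 and 8.46 in ST-HSC, and 8.66, 8.11 and 8.49 in MPP. All 3 populations overlapped for Tspan32, with an interval of -0.39 to 0.77 for MPP minus LT-HSC and of -0.37 to 0.66 for MPP minus ST-HSC.

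Of members outside the leukocyte group, Tspan2, Tspan5, Tspan14 and Tspan31 had means falling from MPP to ST-HSC to LT-HSC, like Cd37, Cd53 and Tspan32. Tspan2 is best known from the myelin-forming cells of the nervous system. Its signal was 5.22 and 5.72 in LT-HSC, 5.31, 5.99 and 5.47 in ST-HSC, and 6.47, 6.60 and 6.40 in MPP. The MPP arrays were above all others, and LT-HSC and ST-HSC overlapped. MPP exceeded LT-HSC by 1.02 (SE 0.23, interval 0.51 to 1.53, limma adjusted p = 0.167, which became 0.758 on leaving out LT-HSC replicate 1 and 0.0431 on leaving out replicate 3, each with a lone LT-HSC array) and ST-HSC by 0.90 (SE 0.21, interval 0.44 to 1.36, adjusted p = 0.14). The replicate block on ST-HSC and MPP gave an adjusted p of 0.0239 for the latter. Tspan12, a co-receptor for Fzd4 that also binds Adam10, showed the reverse order, at 4.97 and 5.24 in LT-HSC, 4.99, 4.77 and 4.72 in ST-HSC, and 4.24, 4.41 and 4.66 in MPP. Each MPP array was below every other array for Tspan12, with log2 differences of -0.66 to LT-HSC (SE 0.19, adjusted p = 0.268) and -0.39 to ST-HSC (SE 0.17, adjusted p = 0.688).

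Tspan13 was at 9.23 and 9.87 in LT-HSC, 9.18, 9.64 and 9.70 in ST-HSC, and 9.86, 10.08 and 10.04 in MPP. Its MPP arrays were above all ST-HSC arrays but reached down to the level of LT-HSC replicate 3, and MPP minus ST-HSC was 0.49 (SE 0.21, limma adjusted p = 0.669). Tspan4, a component of migrasomes, did not separate the populations, with 7.95 and 8.30 in LT-HSC, 7.75, 8.15 and 8.45 in ST-HSC, and 8.28, 7.74 and 8.38 in MPP. Its differences lay between -0.01 and 0.01, with intervals out to -0.57 and 0.57.

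The broadly expressed members Cd9, Cd81, Cd151 and Cd63 had no MPP difference in common. Cd9, the partner of integrins and of Cd81 on platelets, B cells and stem cells, was at 7.83 and 7.86 in LT-HSC, 8.00, 8.86 and 8.73 in ST-HSC, and 7.42, 7.54 and 8.02 in MPP. All ST-HSC arrays were above both LT-HSC arrays, while MPP replicate 3 at 8.02 reached the level of ST-HSC replicate 1. ST-HSC exceeded LT-HSC by 0.68 (SE 0.27, interval 0.09 to 1.28, limma adjusted p = 0.382), and MPP minus ST-HSC was -0.87 (SE 0.24, interval -1.40 to -0.34, adjusted p = 0.236, and 0.0406 with the replicate block on both populations). Cd9 had another probe set, dimmer and flat at 4.83 to 5.35 over the 8 arrays, and the mean of both probe sets gave -0.39 for MPP minus ST-HSC (adjusted p = 0.659). Of 18 megakaryocyte and platelet markers, 15 were measured. Limma called 2 of them higher in ST-HSC than in LT-HSC, 3 lower in MPP than in ST-HSC and 1 lower in MPP than in LT-HSC. Over all genes, 0.933%, 0.193% and 0.125% were called in these comparisons, in either direction. Relative to their mean over all arrays these markers averaged 0.87, 0.16 and 0.29 in ST-HSC replicates 1 to 3, -0.15 and -0.01 in LT-HSC, and -0.34, -0.55 and -0.27 in MPP. Their part in the Cd9 difference was not tested.

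Cd81, a partner of integrins, was nearly level, at 10.46 and 10.93 in LT-HSC, 10.31, 10.70 and 10.69 in ST-HSC, and 10.66, 10.71 and 10.79 in MPP. Its interval for MPP minus LT-HSC ran from -0.42 to 0.47, which leaves room for a modest difference either way. Cd63, a protein of late endosomes and secretory granules, was at 10.13 and 10.32 in LT-HSC, 10.05, 10.44 and 10.37 in ST-HSC, and 10.06, 10.23 and 10.18 in MPP, with an interval of -0.47 to 0.33 for MPP minus LT-HSC. Cd151, which binds laminin-binding integrins, was at 6.75 and 7.37 in LT-HSC, 7.21, 7.61 and 7.91 in ST-HSC, and 7.50, 7.18 and 7.73 in MPP. LT-HSC replicate 1 was the lowest array for Cd151 and the populations overlapped, with ST-HSC minus LT-HSC at 0.52 (SE 0.26, limma adjusted p = 0.499).

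**Figure D3:**
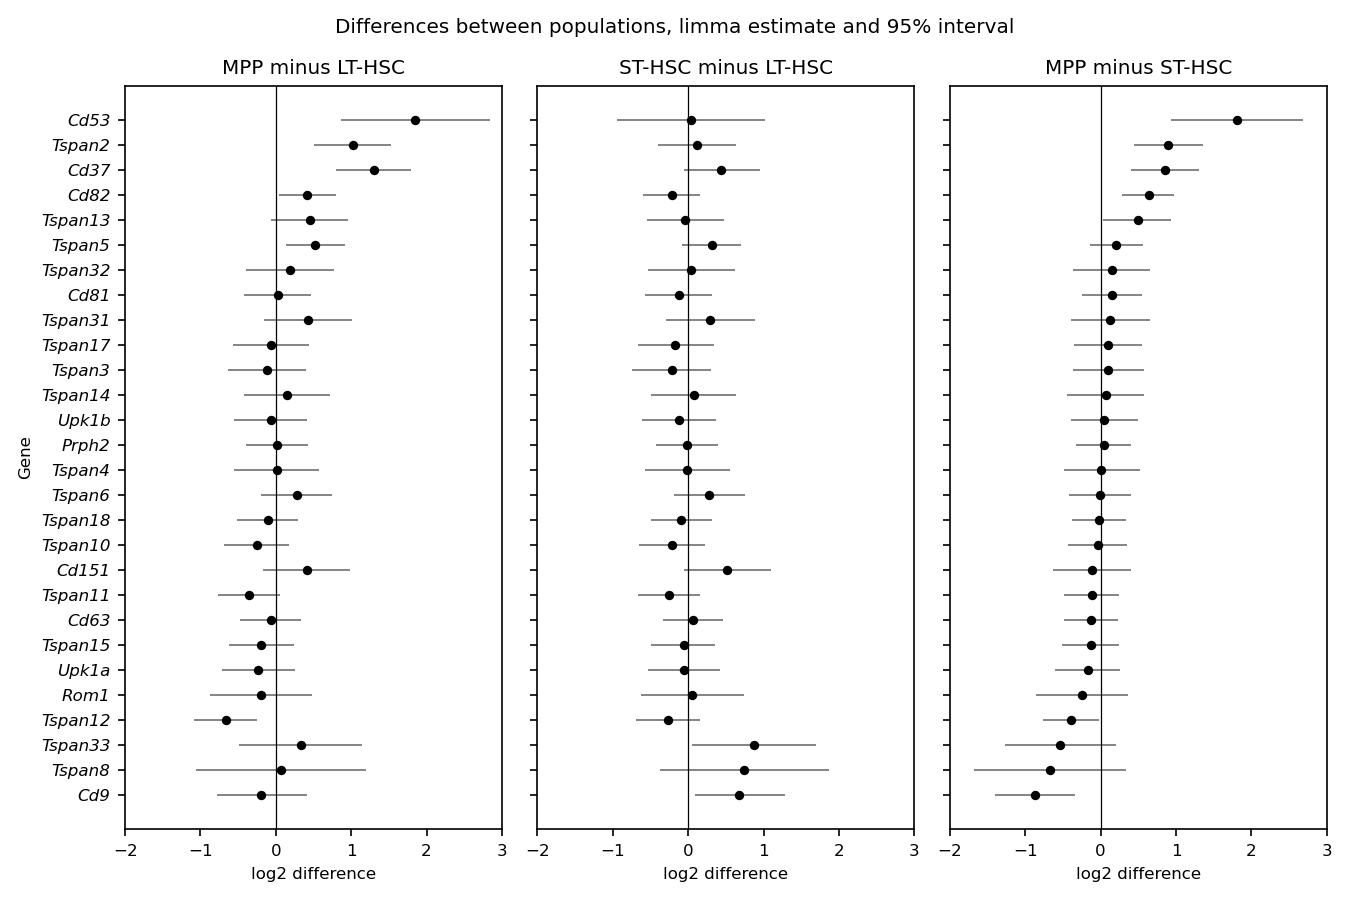
Log2 difference between populations for each tested tetraspanin, as the limma estimate (point) with its 95% interval (bar), in 1 panel per comparison; the vertical line marks no difference. Cd53, Cd37 and Tspan2 stand to the right in MPP minus LT-HSC (1.85, 1.30 and 1.02) and in MPP minus ST-HSC (1.81, 0.86 and 0.90), and Cd9 to the left in the latter (-0.87).

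The 6 TspanC8 members, which bind Adam10 and carry it to the cell surface, split 3 against 3 by direction in each comparison. Tspan5 was at 5.84 and 6.16 in LT-HSC, 6.40, 6.32 and 6.22 in ST-HSC, and 6.68, 6.48 and 6.41 in MPP. Its 3 populations did not overlap and stood in the order LT-HSC, ST-HSC, MPP, but the steps were small: MPP minus LT-HSC was 0.52 (SE 0.18, interval 0.13 to 0.92, limma adjusted p = 0.361) and MPP minus ST-HSC 0.21 (SE 0.16, adjusted p = 0.993). Tspan33, known from red cell precursors, was at 5.75 and 5.70 in LT-HSC, 7.45, 5.95 and 6.38 in ST-HSC, and 6.47, 5.68 and 6.02 in MPP. ST-HSC replicate 1 stood far above the other arrays for Tspan33. ST-HSC minus LT-HSC was 0.87 (SE 0.37, adjusted p = 0.423), and 0.44 (adjusted p = 0.481) with that array left out. Of the other 4, Tspan14 ranged from 7.48 to 8.28 over the arrays, Tspan17 from 5.93 to 6.70, Tspan10 from 4.50 to 5.13 and Tspan15 from 3.89 to 4.36, and their differences between populations were at most 0.25 in size.

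ST-HSC replicate 1 also had the highest signal of any array for Tspan8, an epithelial tetraspanin, at 7.41 against 4.83 to 6.12 in the other 7 arrays. The photoreceptor disc protein Rom1 was likewise highest there, at 6.65 against 5.39 to 5.99. In the same array the 18 stroma and endothelium markers averaged 1.26 above their mean over all arrays, the 6 measured erythroid markers 1.01 and the granulocyte markers 0.98. In the other 7 arrays these averages ran from -0.44 to 0.20 for stroma and endothelium, from -0.61 to 0.50 for erythroid cells and from -0.75 to 0.65 for granulocytes. Globin genes were not matched, so the erythroid list held few of its 15 entries. What part such cells had in the Tspan33, Tspan8 and Rom1 signals was not tested.

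**Figure D4:**
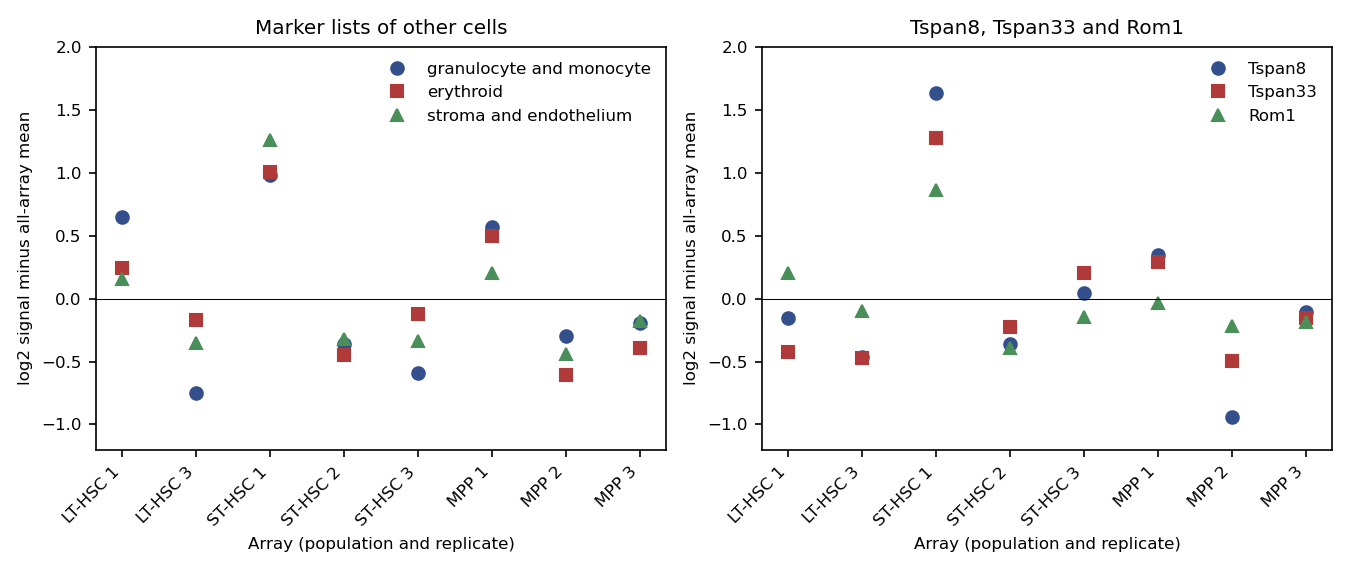
Mean log2 signal of 3 marker lists (left) and log2 signal of Tspan8, Tspan33 and Rom1 (right) in each array, relative to the mean over all 8 arrays, with 1 point per array and list or gene. ST-HSC replicate 1 is high for the stroma and endothelium (1.26), erythroid (1.01) and granulocyte (0.98) markers and for Tspan33, Tspan8 and Rom1.

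The remaining members differed little. Tspan3 ranged from 7.45 to 8.22 over the 8 arrays, Tspan31 from 6.83 to 7.87 and Tspan6 from 6.50 to 7.25, and LT-HSC replicate 1 was the lowest array for the latter pair. Tspan11 was at 7.05 and 6.58 in LT-HSC and 6.38 to 6.56 in MPP, without overlap, for a difference of -0.36 (SE 0.19, limma adjusted p = 0.513). Tspan18, the genomic neighbour of Cd82 with no protein-coding gene between them, ranged from 4.49 to 4.90 and did not share the higher Cd82 signal of MPP. Tspan32 and Cd81 are neighbours in the same sense, and Cd151 and Tspan4 have 1 protein-coding gene between them. The urothelial plaque proteins Upk1a (4.12 to 4.84) and Upk1b (3.64 to 4.25) and the photoreceptor protein Prph2 (5.33 to 5.73) were flat. Over all 30 measured members the highest population mean was in MPP for 12, in LT-HSC for 10 and in ST-HSC for 8.

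Genes that work with tetraspanins were read from 64 listed partners, of which 63 were measured and 62 tested. By limma, 2 of these rose in ST-HSC minus LT-HSC, 1 fell in MPP minus ST-HSC, 2 passed the F test and 0 passed in MPP minus LT-HSC, where the shares over all genes were 0.933%, 0.193%, 0.905% and 0.125%. At an unadjusted p under 0.05 the partners numbered 13 (21%, beside 10.6% of all genes) in MPP minus LT-HSC, 5 (8.06%, beside 11.1%) in ST-HSC minus LT-HSC and 14 (22.6%, beside 6.89%) in MPP minus ST-HSC. Of the 14 integrin genes, Itga2b, the platelet integrin subunit CD41 that associates with Cd9 and Cd151, was the one called. It was at 6.48 and 6.30 in LT-HSC, 7.55, 7.52 and 7.64 in ST-HSC, and 6.32, 6.33 and 6.55 in MPP. The ST-HSC arrays were above all others and tightly grouped. ST-HSC exceeded LT-HSC by 1.18 (SE 0.17, limma adjusted p = 0.00814), and MPP minus ST-HSC was -1.17 (SE 0.15, adjusted p = 0.0141). The first of these adjusted p-values became 0.0576 when LT-HSC replicate 1 and 0.0507 when ST-HSC replicate 3 was left out, and that of the other was 0.0893 and 0.0972 without ST-HSC replicates 2 and 3 and 0.0554, 0.0965 and 0.0771 without MPP replicates 1, 2 and 3. The difference to LT-HSC also missed the threshold with array weights (0.0512) and without both LT-HSC 1 and ST-HSC 1 (0.0966), and that between MPP and ST-HSC under median centring (0.0615). Its partner subunit Itgb3 was at 6.49 and 6.76 in LT-HSC, 7.24, 6.39 and 6.65 in ST-HSC, and 5.69, 5.62 and 5.90 in MPP, a log2 difference of -1.02 for MPP minus ST-HSC (adjusted p = 0.106, and 0.0259 with the replicate block on both populations). Both subunits are also among the megakaryocyte and platelet markers given above. Itgb1 (8.59 to 9.07) and Itga6 (8.22 to 8.93), the brightest integrin probe sets, did not pass.

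Zdhhc2, the enzyme that attaches palmitate to Cd9 and Cd151, was the other called partner. Its signal was 4.18 and 4.70 in LT-HSC, 5.61, 5.53 and 5.93 in ST-HSC, and 5.18, 4.80 and 4.87 in MPP. The populations did not overlap, and ST-HSC was the highest. ST-HSC exceeded LT-HSC by 1.25 (SE 0.22, limma adjusted p = 0.0227), which became 0.99 (adjusted p = 0.211) on leaving out LT-HSC replicate 1. Leaving out replicate 2 of ST-HSC gave 1.33 (0.0514), its replicate 3 gave 1.13 (0.114), and replicate 3 of MPP gave 1.25 (0.0605). The call was also lost under median centring (0.0567), with array weights (0.111), with only ST-HSC and LT-HSC in the fit (0.071) and without both LT-HSC 1 and ST-HSC 1 (0.227), so that 8 of 19 alternatives ended it. In the same list of 20 intracellular partners Sdc1, a syndecan that brings syntenin cargo to vesicles, was at 5.83 and 6.84 in LT-HSC, 6.54, 5.58 and 6.09 in ST-HSC, and 7.52, 7.53 and 7.16 in MPP. Its MPP arrays were the highest, and MPP minus ST-HSC was 1.34 (SE 0.29, limma adjusted p = 0.112, and 0.0122 with the replicate block on both populations). Sdc1 had 2 probe sets, and their mean gave a difference of 0.98 (limma adjusted p = 0.112). Msn (8.84 to 9.45) and Lamp1 (8.76 to 9.41) varied little.

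In the Adam10 list of 10 sheddases and substrates, 0 genes passed by limma in any comparison, and 0, 0 and 2 had an unadjusted p under 0.05 in MPP minus LT-HSC, ST-HSC minus LT-HSC and MPP minus ST-HSC, which is 0%, 0% and 20% of the list beside 10.6%, 11.1% and 6.89% of all genes. Adam10 itself was at 8.78 and 9.78 in LT-HSC and at 9.09 to 9.65 in the other 6 arrays, with LT-HSC replicate 1 the lowest. The substrates Notch1 and App differed in opposite directions in MPP minus ST-HSC, by 0.61 (SE 0.20, limma adjusted p = 0.382) and -0.55 (SE 0.22, adjusted p = 0.603), while Notch2 stayed between 7.67 and 8.12. Among 18 tested receptors and immunoglobulin-type partners, also with 0 calls, 5, 2 and 2 genes (27.8%, 11.1% and 11.1%) had an unadjusted p under 0.05 in the same 3 comparisons. Of these partners, the Wnt co-receptor Lrp5 was 0.74 higher in MPP than in ST-HSC (SE 0.17, adjusted p = 0.125, and 0.0387 with the replicate block on both populations). The homing receptor Cxcr4 was 1.16 higher in MPP than in LT-HSC (SE 0.28, adjusted p = 0.187). Cd47 (10.51 to 11.06) and Ifitm3 (10.73 to 11.09) were nearly level over the arrays.

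**Figure D5:**
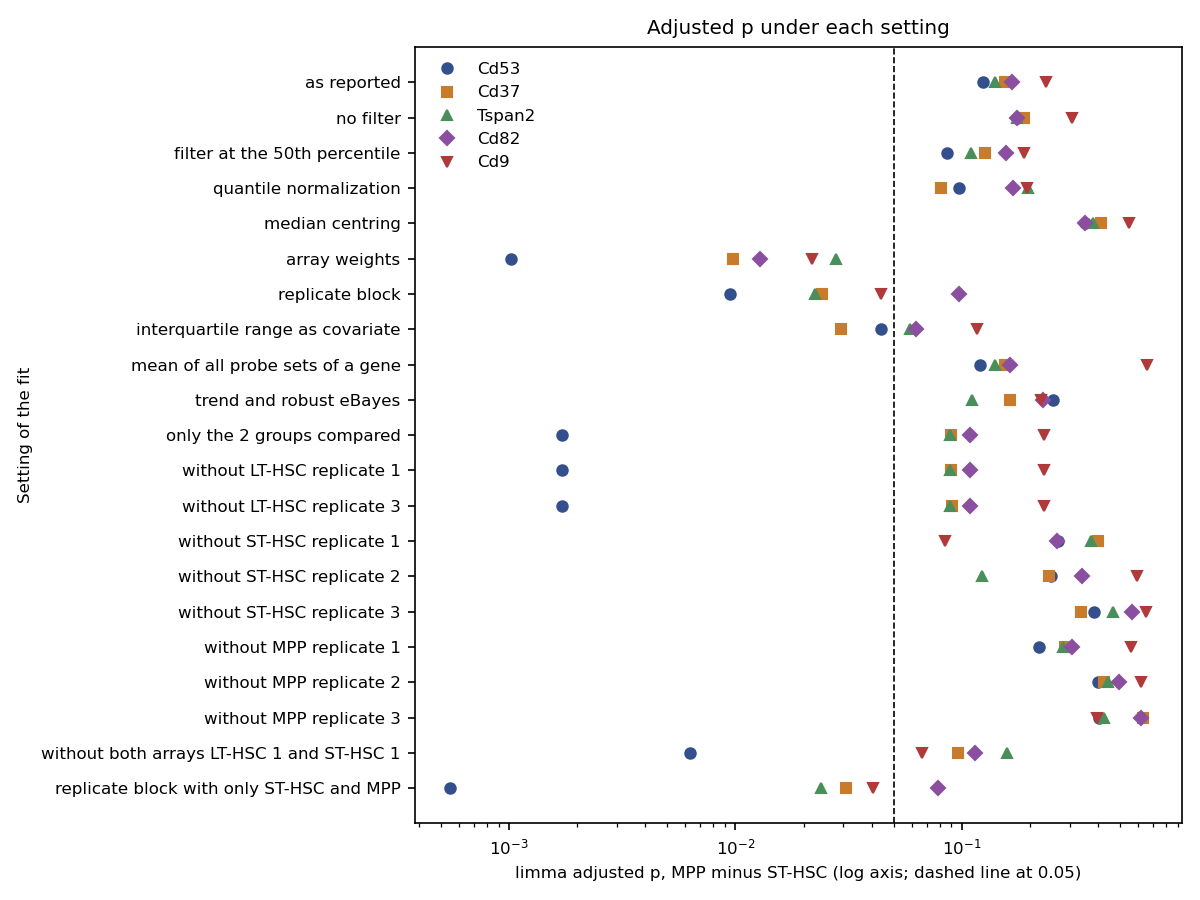
Limma adjusted p of MPP minus ST-HSC for Cd37, Cd53, Cd82, Cd9 and Tspan2 (points, horizontal log axis) under each setting of the fit (rows), with the 0.05 threshold as a dashed line. Cd53 runs from 0.000549 with the replicate block on ST-HSC and MPP to 0.402 without MPP replicate 3, and the other 4 cross the line under fewer settings.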

How the data were processed

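Total RNA was extracted with Trizol and amplified (Ovation Pico WTA System V2) and labelled with biotin (Encore Biotin Module), per the labels' protocols. The deposited log2 values were made by the authors with RMA, per the submitters' processing notes. The RMA software, its version and the probe annotation are not given in the sources used here, and no source states the log scale, which was inferred from the span of the values (2.05 to 12.94). RMA scales arrays toward a common distribution, but the deposited arrays kept different medians and interquartile ranges. Dim signals are compressed on this scale, and amplification can add spread between arrays. No raw intensities were analysed here, and the number of arrays limits the precision.

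The table held 33649 probe sets, of which 23521 carried 1 gene symbol, 1814 several (left unnamed) and 8314 none here. For genes with several probe sets the brightest was used, and genes whose mean reached the 25th percentile of probe sets were tested. A model of population means was fitted to the 8 arrays together with limma (version 3.58.1, R version 4.3.3), leaving 5 residual and 5.93 prior degrees of freedom, with Benjamini-Hochberg adjustment over 17576 genes. The fit was also run on simulated data, with independent noise of the same spread in all arrays of a gene. That run does not cover arrays that stand apart, other cells in a sample or shared replicate numbers. Members, lists and comparisons were chosen with earlier results of these data known. Members were named when called, when among the 5 with the smallest p of a comparison or when among the 6 brightest. Partner genes were named when called or when among the 2 brightest, or the 2 with the smallest p, of their list.

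Populations share replicate numbers in the labels. Deviations from the group means correlated at 0.15, 0.23 and 0.21 between ST-HSC and MPP arrays of the same number. Between those of different numbers they correlated at -0.28 to 0.07. Deviations cancel out within a population, so the same-number and different-number values depend on each other. The labels state no pairing and these weak correlations do not establish it, so the reported fit has no block. Values with the block on ST-HSC and MPP are an alternative chosen after seeing the data. With LT-HSC the deviations correlated at 0.54 and 0.47 (ST-HSC) and at -0.16 and 0.10 (MPP) over 2 shared numbers. The deviations of the 2 LT-HSC arrays are mirror images, so these values are not separate observations and do not settle a pairing either. Promoters came from RefSeq on GRCm38.p6 and were matched by gene symbol for 29 of 31 members. Protein sequences and array-build coordinates were not used here.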

Additional observations from a re-analysis of the deposited data

How the results depend on the processing

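With 2 or 3 arrays per population, calls moved with the setting while the directions named next held. Cd37, Cd53, Cd82, Tspan2 and Tspan5 stayed higher in MPP than in either stem cell population, and Tspan12 lower, under every alternative in which they were tested (Tspan12 was below the filter at the 50th percentile). Of 20 alternatives, 1, a replicate block on ST-HSC and MPP alone, was chosen after seeing the data. Genes called over all genes ranged from 29 to 566 (F test), 5 to 615 (MPP minus LT-HSC), 1 to 525 (MPP minus ST-HSC) and 1 to 824 (ST-HSC minus LT-HSC), beside 159, 22, 34 and 164 as reported. Median centring moved the median over all genes from 0.06 to 0.18 in MPP minus LT-HSC and from 0.02 to 0.13 in ST-HSC minus LT-HSC. No raw signal over background was analysed here, so a limit of detection cannot be given.

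Members called by the F test went from 1 to 0 with no filter on dim genes, 0 under median centring, 4 with array weights and 4 with the replicate block. In MPP minus LT-HSC, 0 became 1 under quantile normalization (Cd37, adjusted p = 0.0401) and 2 with the replicate block (Cd37 and Cd53, adjusted p = 0.0127 and 0.0359). In MPP minus ST-HSC, 0 became 5 with array weights, 4 with the replicate block over all arrays and 4 with it on these populations alone, 2 with the interquartile range as covariate, 1 with only the 2 groups compared and 1 without both LT-HSC 1 and ST-HSC 1. The replicate block called Cd37, Cd53, Cd9 and Tspan2 in both versions. In ST-HSC minus LT-HSC the replicate block called 2 members, Tspan33 (1.13, adjusted p = 0.0191) and Tspan8 (1.12, adjusted p = 0.0332), where LT-HSC shares only 2 numbers. Leaving out 1 array at a time gave 0 to 3 calls by the F test, 0 to 3 in MPP minus LT-HSC, 0 to 1 in MPP minus ST-HSC and 0 to 1 in ST-HSC minus LT-HSC. Calls over all genes also moved between alternatives, over the ranges given above, so these member counts alone do not set the family apart. The cause of these changes was not tested.

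Log2 differences that changed sign were small except for Cd53 in ST-HSC minus LT-HSC, which went to -0.14 with quantile normalization, -0.04 with the replicate block, -0.47 with the interquartile range as covariate, -0.99 without LT-HSC 1 and ST-HSC 1, and -1.02 to 1.10 with 1 array left out. In the order of these alternatives as far as they changed sign, Tspan32 went to -0.01 (quantile), -0.22 (covariate) and -0.15 (both arrays out) in MPP minus LT-HSC, to -0.15, -0.32 and -0.11 in ST-HSC minus LT-HSC, and to -0.04 (both out) in MPP minus ST-HSC. Tspan4 went to -0.19, -0.33 and -0.17 in MPP minus LT-HSC, to -0.02 (covariate) and -0.17 (both out) in MPP minus ST-HSC, and to 0.10 (median centring), 0.10 (array weights) and 0.08 (replicate block) in ST-HSC minus LT-HSC. Cd81 went to -0.10, -0.20 and -0.21 in MPP minus LT-HSC. Cd63 went to 0.05 (median centring) in MPP minus LT-HSC and to -0.10 (quantile) and -0.04 (covariate) in ST-HSC minus LT-HSC. In ST-HSC minus LT-HSC, Tspan13 went to 0.07 (median centring) and 0.07 (array weights), and Tspan2 to -0.01 (replicate block) and -0.06 (covariate). With 1 array left out, the ranges in MPP minus LT-HSC were -0.17 to 0.03 for Cd63, -0.21 to 0.26 for Cd81, -0.15 to 0.53 for Tspan32 and -0.17 to 0.20 for Tspan4. In ST-HSC minus LT-HSC they were -0.04 to 0.18 for Cd63, -0.36 to 0.11 for Cd81, -0.36 to 0.28 for Tspan13, -0.14 to 0.37 for Tspan2, -0.30 to 0.38 for Tspan32 and -0.18 to 0.18 for Tspan4. In MPP minus ST-HSC they were -0.30 to 0.06 for Cd151, -0.04 to 0.30 for Tspan32 and -0.17 to 0.21 for Tspan4.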
